A study of Mus musculus with 12 samples.

Results

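Exosome RNA was set against the RNA of the cells that released it, mouse by mouse, and the question was whether that exosome minus cell difference depended on genotype. The quantity is an interaction: the log2 difference between the exosome and the cell library of the same mouse, in mice whose label is a double knock-out of Sidt1 and Sidt2 (DKO) minus that in wild-type (WT) mice. It used 12 of the 12 libraries of the series, a pair from each of 6 mice. The WT mice were 33 and 42, both female, and 46, a male. The mice labelled DKO were 151, 152 and 153, all male, so genotype and sex were partly confounded. All animals were of the C57Bl/6 strain, and the labels name no treatment. Their bone marrow was grown for 7 days into dendritic cells with 10% supernatant of X-63 cells as the source of GM-CSF. Each group held 3 libraries. Within a group each library comes from a different mouse, and p-values measure the spread between these mice.

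Exosomes are small vesicles that cells release when multivesicular endosomes fuse with the plasma membrane, and they carry messenger RNA and its fragments along with other RNA. SIDT1 and SIDT2 are mammalian relatives of SID-1, the worm membrane protein needed for the spread of double-stranded RNA between cells, and SIDT2 sits mainly in the membrane of lysosomes and late endosomes. Dendritic cells take up, process and present antigen and are rich in that endosomal compartment. Cultures of marrow in GM-CSF hold macrophage-like cells beside dendritic cells.

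Total counts ran from 7215083 to 32273898 per library, and 3 counts stood for 0.093 to 0.416 CPM, the TMM-normalised counts of a gene relative to all counts of its library. RNA of cells and of exosomes was extracted by different methods, so extraction and compartment cannot be told apart, but the methods were the same for both genotypes. Summed levels of 25 dendritic cell marker genes were 6956 to 8155 CPM in WT cells and 4605 to 6713 CPM in cells labelled DKO, and those of 23 macrophage markers were 48474 to 52630 CPM and 50698 to 64524 CPM. Dendritic cell markers were therefore present in every culture beside a larger sum of macrophage markers. Fewer cells of a type and less RNA per cell cannot be told apart in these libraries.

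No gene showed an exosome minus cell difference that depended on genotype at the threshold used. In edgeR's quasi-likelihood test with the mouse as a block, 0 of 12970 genes had an adjusted p below 0.05 in either direction (0% higher and 0% lower in DKO), and the smallest adjusted p was 0.739. At an unadjusted p below 0.05, 295 genes were higher in DKO (2.27% of those tested) and 309 were lower (2.38%). The calls were also 0 with DESeq2 (736 genes at an unadjusted p below 0.05) and with limma-voom (1595 genes). The per-mouse differences of the genotypes did not overlap for 928 genes on the higher side (7.15%) and 770 on the lower side (5.94%). The genes named below are therefore given by their values, as none was called in the fit with the mouse block. In 17 alternative analyses the only exception was a fit with a compartment by sex term, which called 7 genes and is described below.

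The absence of calls did not show that the differences were alike, and the intervals say how closely they were measured. The interaction had a median of 0.03 over all genes on the log2 scale, with 10th and 90th percentiles of -0.67 and 0.68, and a median SE of 0.326. Its 95% interval, computed per gene and not adjusted, lay wholly within a 2-fold change in either direction for 5674 genes (43.7%) and within a 4-fold change for 10104 genes (77.9%). Precision followed abundance. Among genes with a mean log2 CPM of 6 to 8 the interval stayed within 2-fold for 75.2%, between 4 and 6 for 63.3%, between 2 and 4 for 22.7%, and below 0 for none of 834 genes. For the abundant genes a genotype effect of more than 2-fold was thus outside the interval in most cases, and for rare genes changes of that size were not detectable.

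The exosome minus cell difference itself had the same direction in both genotypes for most genes. Its mean was above 0 in both for 4989 genes, below 0 in both for 5775 genes and of opposite sign for 2206 genes. All 6 mice had the same sign for 50.6% of genes. In 58 genes every WT mouse was above 0 and every mouse labelled DKO below 0, and in 57 genes the reverse held, which together is 0.887% of the genes tested.

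**Figure D1:**
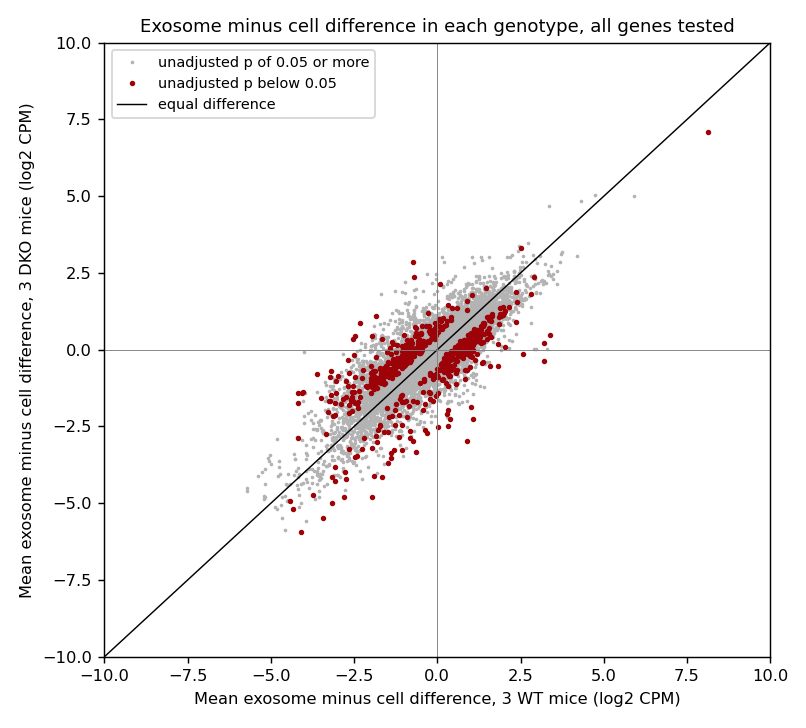
Each point is 1 of 12970 genes, with the mean exosome minus cell difference (log2 CPM) of the 3 WT mice on the x axis and of the 3 mice labelled DKO on the y axis; the line marks equal differences. Genes with an unadjusted p below 0.05 (604 in all) lie on both sides of the line, 295 above and 309 below, and none had an adjusted p below 0.05.

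Much of the spread lay between mice of the same genotype. A principal component that held 52.4% of the variance of the per-mouse differences set WT mouse 33 at 83.0, with the other 5 mice between -21.9 and -9.06, and the next component (18.4%) set DKO mouse 152 at -48.6. Mouse 33 was the one farthest from the median of the 6 mice for 50.3% of genes. The median absolute gap between mouse 33 and a mouse labelled DKO was 0.633 to 0.757, whereas it was 0.278 to 0.372 between the other WT mice and those labelled DKO. Among the mice labelled DKO it was 0.310 to 0.355, so without mouse 33 the gaps between genotypes spanned the range of those within DKO. Leaving out mouse 33 also left 0 genes called, with 450 at an unadjusted p below 0.05. It moved the interaction of 54 of 126 genes (the named genes, list members at that p and mitochondrial genes) by more than 1.5 times, and leaving out mouse 46 moved 20, mostly mitochondrial. WT mouse 46 departed from the others in mitochondrial and nuclear RNA, as given below.

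The targeted genes were read first in every sample. Sidt2, the lysosomal member of the family, had 7775, 3661 and 6212 counts in the WT cell libraries and 2218, 6197 and 2121 in the WT exosome libraries. In the libraries labelled DKO it had 15, 21 and 11 counts in cells and 14, 13 and 18 in exosomes, so its loss was seen in both compartments of all 3 mice. Its interaction was -0.22 ± 0.35 (SE) on the log2 scale and rests on those low counts. Sidt1 went against the label. It had 3, 0 and 0 counts in WT cells and 0, 3 and 4 in WT exosomes, but 594, 1722 and 574 in cells and 483, 440 and 309 in exosomes labelled DKO. The libraries are therefore called by their label, every direction below rests on that label, and no genotype dependence of the exosome level could be drawn for Sidt1 because the WT libraries were at or near 0.

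The genes with the smallest p and a higher exosome minus cell difference in DKO were headed by Iqgap2, a scaffold protein of the actin cytoskeleton (GRCm38, the assembly of mm10, chr13:95627177-95892280). Its cell levels were 33.9, 28.9 and 31.5 CPM in WT against 33.9, 27.1 and 35.7 CPM in DKO, and its exosome levels were 23.2, 19.3 and 25.3 CPM in WT against 51.1, 33.3 and 54.8 CPM in DKO. The cells overlapped between genotypes while the exosomes did not, and every WT mouse had less in exosomes than in cells and every DKO mouse more. The interaction was 0.99 ± 0.21, with a 95% interval of 0.51 to 1.46 and an adjusted p of 0.739 (0.16 to 1.0 over the alternatives).

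Smarca5-ps, annotated as a copy of the chromatin remodeller gene Smarca5, had 0.875, 2.80 and 2.88 CPM in WT exosomes against 6.80, 6.00 and 6.25 CPM in DKO exosomes, from 10.4 to 14.2 CPM in WT cells and 9.36 to 11.9 CPM in DKO cells. Its interaction was 1.82 ± 0.40, and because it resembles its parent gene its reads are uncertain. Rfc1, the large subunit of the clamp loader of DNA replication, had 20.6, 23.4 and 24.7 CPM in WT exosomes and 50.6, 35.1 and 45.9 CPM in DKO exosomes, with cells at 49.5 to 57.9 CPM in all 6 mice. Its interaction was 0.94 ± 0.21. Both transcripts had less in exosomes than in cells in every WT mouse and values nearer to the cell level in DKO.

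Ccdc88a, which encodes the actin-binding protein girdin, had 5.83, 9.41 and 13.9 CPM in WT exosomes and 29.0, 15.6 and 24.3 CPM in DKO exosomes, against 57.3 to 75.9 CPM in cells, and an interaction of 1.23 ± 0.28. Ppip5k1, an inositol pyrophosphate kinase, had 4.37, 7.97 and 6.79 CPM in WT exosomes and 17.6, 15.7 and 14.4 CPM in DKO exosomes, and an interaction of 1.35 ± 0.34. Rbm27, an RNA-binding protein, had an interaction of 0.85 ± 0.22. In all 6 of these genes the cell levels of the genotypes overlapped and the exosome levels did not.

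On the lower side the smallest p belonged to Jaml, a junctional adhesion molecule of leukocytes (chr9:45079153-45108531). Its cells held 109, 149 and 175 CPM in WT against 115, 110 and 99.2 CPM in DKO, and its exosomes 24.2, 24.6 and 28.7 CPM in WT against 8.29, 11.9 and 8.51 CPM in DKO. The transcript was low in exosomes in every mouse and lower still in those labelled DKO, with an interaction of -1.04 ± 0.23 and an adjusted p of 0.739 (0.16 to 1.0 over the alternatives). Jaml lies near the targeted gene Sidt2 (chr9:45937857-45958000), as does Cd3g, named below (chr9:44969572-44980431). The part of this position in the values of Jaml and Cd3g was not tested. Ceacam15, of the carcinoembryonic antigen family, had 5.10, 7.77 and 3.70 CPM in WT exosomes and 1.98, 0.725 and 1.73 CPM in DKO exosomes, with 64.0 to 130 CPM in cells, and an interaction of -2.01 ± 0.45. Tmem176b, a membrane protein of immature dendritic cells, had 78.1, 48.0 and 52.9 CPM in WT exosomes and 17.6, 22.9 and 23.9 CPM in DKO exosomes. Its cells held 332, 272 and 337 CPM in WT against 257, 243 and 204 CPM in DKO, so both compartments parted by genotype. The interaction was -1.04 ± 0.25.

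Prdx1, an antioxidant peroxiredoxin, was different in where the genotypes parted. Its cells held 1034, 1302 and 1428 CPM in WT against 2190, 2371 and 1974 CPM in DKO, while its exosomes held 3222, 2817 and 3114 CPM in WT against 2580, 3750 and 2449 CPM in DKO. Here the cells did not overlap between genotypes and the exosomes did, so the interaction of -0.89 ± 0.21 came from the cell side. Nemp2, a protein of the nuclear envelope, had 6.71, 8.55 and 5.25 CPM in WT exosomes and 2.76, 2.77 and 1.86 CPM in DKO exosomes, from 7.48 to 9.41 CPM in all cells, and an interaction of -1.45 ± 0.36.

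**Figure D2:**
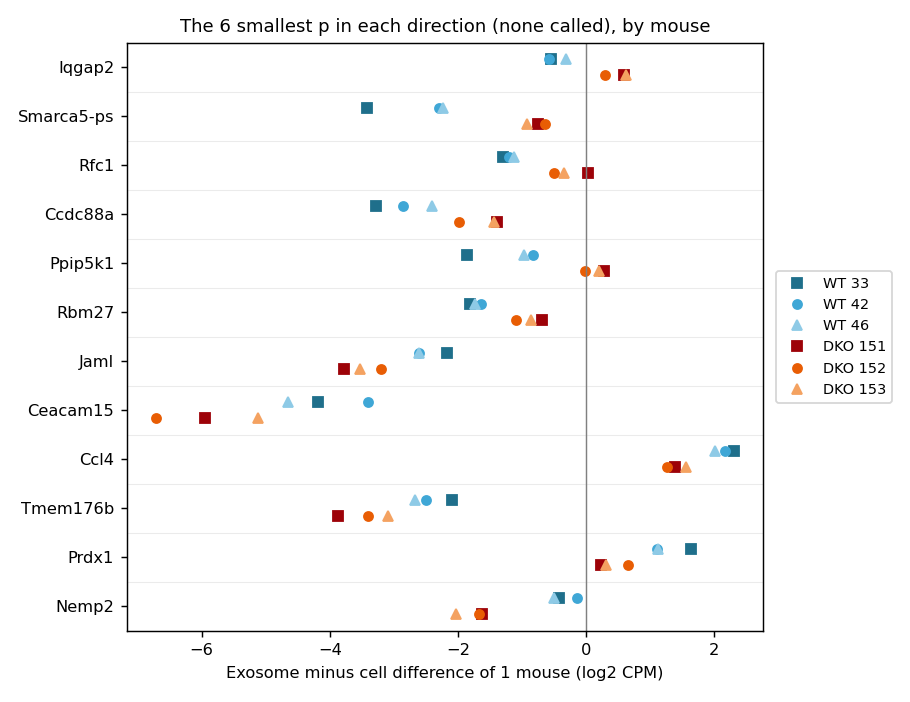
Exosome minus cell difference of each mouse (x axis, log2 CPM) for the 6 genes with the smallest p in each direction, WT mice in blue and mice labelled DKO in red and orange. The genotypes do not overlap in any of the 12 genes, none of which was called, and in Iqgap2 every WT mouse lies below 0 and every DKO mouse above 0.

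Chemokine transcripts were among those with many members at a small p on the lower side. Of 30 tested genes for chemokines, cytokines and NF-kB targets, 9 had such a p with a lower difference in DKO (30.0%, against 2.38% of all genes), 1 had it with a higher one, and 0 were called. The list median was -0.29, against 0.03 for all genes. The per-mouse differences did not overlap for 9 members on the lower side and 1 on the higher, where all genes gave 5.94% and 7.15%. The individual members described next, apart from Ccl4 and Ccl22, were picked after their values were seen.

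The CC chemokines are ligands that attract monocytes, T cells and granulocytes. The 7 CC chemokine genes of this list on chromosome 11 (chr11:82035577-83664683) all had an unadjusted p below 0.05 with a lower difference in DKO. This covers members of the list only, not every CC chemokine gene of that chromosome. Ccl4 (MIP-1 beta) had 162, 211 and 205 CPM in WT exosomes and 92.0, 121 and 120 CPM in DKO exosomes, whereas its cells held 32.5, 46.8 and 50.6 CPM in WT against 35.2, 50.5 and 40.7 CPM in DKO. Its transcript was more abundant in exosomes than in cells in every mouse, and less so in those labelled DKO, with an interaction of -0.77 ± 0.18 and an adjusted p of 0.739. Ccl3 (MIP-1 alpha) had 274, 303 and 301 CPM in WT exosomes and 191, 215 and 209 CPM in DKO exosomes, and an interaction of -0.60 ± 0.17. The annotated intervals of Ccl3 and Ccl4 overlap, so their reads are not fully separate.

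Ccl2 (MCP-1) had 446, 586 and 535 CPM in WT exosomes and 340, 281 and 332 CPM in DKO exosomes, with cells at 158 to 256 CPM in all mice, and an interaction of -0.72 ± 0.19. Ccl7, its neighbour on the chromosome, had 78.7, 89.9 and 81.7 CPM in WT exosomes and 49.5, 51.2 and 58.0 CPM in DKO exosomes, and an interaction of -0.65 ± 0.19. For these 4 chemokines the exosome levels of the genotypes did not overlap while the cell levels did. Ccl6 and Ccl9, far more abundant, had interactions of -0.51 ± 0.20 each. Their exosome levels overlapped between genotypes, while their cell levels did not and were higher in DKO. Ccl6 had 8773 to 9935 CPM in WT cells and 11401 to 12326 CPM in DKO cells. Ccl9 had 2083 to 2939 CPM in WT cells and 3060 to 3632 CPM in DKO cells. In 6 of the 7 genes the exosome level was above the cell level in all 6 mice.

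Ccl5 (RANTES) was the exception and was lower in exosomes than in cells in every mouse. Its exosomes held 283, 202 and 78.3 CPM in WT against 67.6, 80.1 and 75.2 CPM in DKO, so WT mouse 46 lay among the DKO mice, and the interaction was -1.12 ± 0.41. Il6 had 1.31, 0.386 and 1.13 CPM in WT exosomes and 0.0708, 0.0659 and 0 CPM in DKO exosomes, below the level of 3 counts in the latter, with 2.32 to 5.20 CPM in cells. Nfkb1, which encodes a subunit of NF-kB itself, had the opposite sign (0.68 ± 0.27, and 0.38 without mouse 33).

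MHC class II genes, which encode the molecules that present peptides to CD4 T cells, mostly had negative exosome minus cell differences, with lower values in DKO. Of 13 members tested, 4 had an unadjusted p below 0.05 with a lower difference in DKO (30.8%, against 2.38% of all genes), 0 with a higher one and 0 were called. Of the 13 interactions 11 were below 0, as were 47.3% of those of all genes. The list median of the interaction was -0.27, against 0.03 for all genes. Over the members, the median difference was -0.78, -1.22 and -1.43 in WT mice 33, 42 and 46. It was -1.96, -1.76 and -1.56 in DKO mice 151, 152 and 153. These per-mouse medians fell on different members in different mice, so the gap between them is not that of any single gene. This was 1 of 2 lists, among 32 with at least 3 members tested, whose per-mouse medians did not overlap between genotypes. For single genes, the per-mouse differences did not overlap for 13.1% of all tested, so 2 of 32 lists was no excess.

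H2-Aa, the alpha chain of I-A, had 2567, 2214 and 2736 CPM in WT cells and 2434, 2332 and 1775 CPM in DKO cells. Its exosomes held 1656, 1041 and 1139 CPM in WT against 654, 766 and 586 CPM in DKO. The exosomes thus parted by genotype and the cells overlapped, with an interaction of -0.70 ± 0.21. H2-Eb1, the beta chain of I-E, had 1040, 722 and 764 CPM in WT exosomes and 446, 517 and 448 CPM in DKO exosomes, and an interaction of -0.54 ± 0.19. H2-Ab1 had an interaction of -0.37 ± 0.16 and H2-Oa, a modulator of peptide loading, of -0.73 ± 0.32 (-0.46 without mouse 33). The regulator of the class II genes, Ciita, had 0.05 ± 0.32, with a sign that turned when mouse 33 was left out. MHC class I genes gave 0 of 21 at an unadjusted p below 0.05 and a median of -0.0042.

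**Figure D3:**
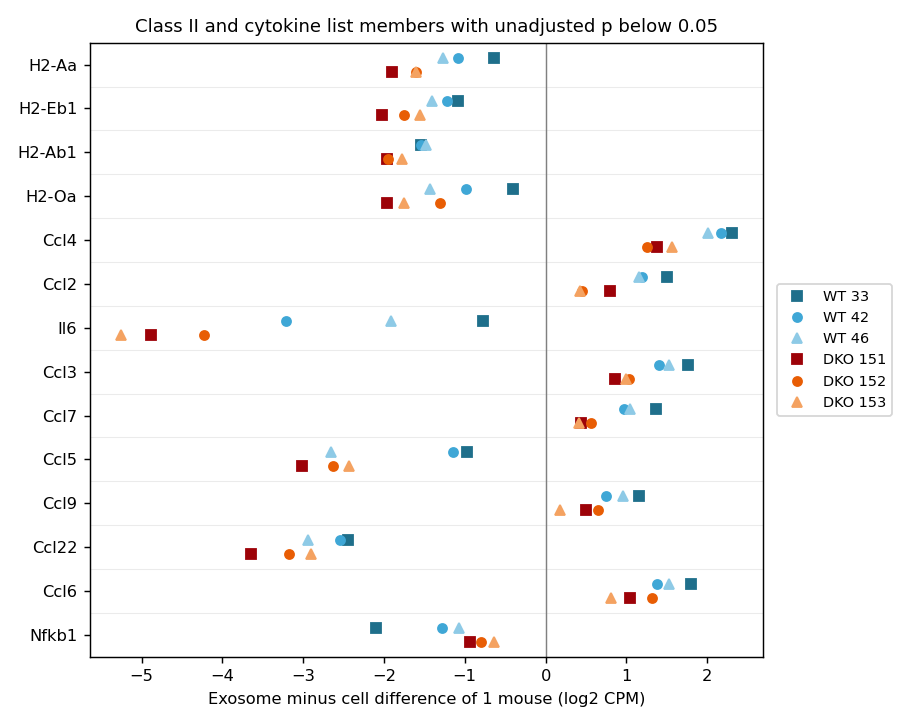
Exosome minus cell difference of each mouse (x axis, log2 CPM) for the 4 class II genes (top) and the 10 chemokine, cytokine and NF-kB genes with an unadjusted p below 0.05; blue marks WT and red and orange mark DKO. The class II genes lie below 0 in all 6 mice, Ccl2, Ccl3, Ccl4, Ccl6, Ccl7 and Ccl9 lie above 0 in all 6, and in each of these sets the DKO mice lie to the left of most or all WT mice.

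Markers of dendritic cells, of which Ccl22, Ccl17, Relb and Il12b are also in the chemokine list, mostly had negative interactions too. Of 24 tested, 22 interactions were below 0, against 47.3% of all genes, 2 had an unadjusted p below 0.05 (Ccl22 and Mgl2, both lower, against 2.38% of all genes), 0 were called, and the median was -0.43. Ccl22, a chemokine of mature dendritic cells, had 387, 318 and 310 CPM in WT exosomes and 176, 189 and 152 CPM in DKO exosomes, with cells at 2113, 1857 and 2375 CPM in WT against 2213, 1713 and 1141 CPM in DKO, and an interaction of -0.60 ± 0.23. Ccr7, a chemokine receptor used by dendritic cells on their way to lymph nodes, had an interaction of -0.44 ± 0.20 and was lower in exosomes than in cells by 4.25 to 5.16 log2 units in every mouse. The summed dendritic cell markers were 2172 to 2253 CPM in WT exosomes and 1485 to 1554 CPM in DKO exosomes, and in cells they were also lower in DKO, as given above. The part of these marker levels in the class II and chemokine values was not tested.

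Macrophage markers gave no common direction, with 10 of 23 interactions below 0, against 47.3% of all genes, and a median of 0.03. At an unadjusted p below 0.05 there were 2 members, both lower, against 2.38% of all genes. Spp1, the secreted protein osteopontin, had 3617, 3894 and 3721 CPM in WT cells and 6389, 5448 and 5336 CPM in DKO cells, with exosomes at 4419 to 6429 CPM in DKO and 4474 to 5090 CPM in WT. Its interaction of -0.50 ± 0.17 thus came with cells that did not overlap and exosomes that did. Trem2 had an interaction of -0.44 ± 0.17. Neutrophil, mast cell, B cell and T or NK cell markers gave 0 members at an unadjusted p below 0.05 (of 16, 9, 12 and 6 tested), and their leading members were Retnlg (-2.48 ± 1.14), Kit (-1.14 ± 0.81), Jchain (-2.33 ± 1.03) and Cd3g (-4.55 ± 2.75), all at low counts in exosomes. The neutrophil list turned on single mice. Without mouse 46, 6 of 16 were lower at that p (37.5%, against 8.47% of all genes in that fit) with a median of -0.81. Without mouse 33 the median was 0.20. Among 3 erythroid and platelet markers tested, Ppbp and Pf4, both platelet chemokines, had an unadjusted p below 0.05 (-0.48 ± 0.18 and -0.54 ± 0.23). Both were lower, as were 2.38% of all genes at that p.

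Nuclear genes of oxidative phosphorylation, which encode subunits of the respiratory chain and ATP synthase, had the largest number of members at an unadjusted p below 0.05. Of 94 tested, 18 were lower in DKO at that p (19.1%, against 2.38% of all genes), 0 were higher and 0 were called. The median was -0.47, and 79 of 94 interactions were below 0. The per-mouse differences did not overlap for 34 members on the lower side and 2 on the higher, where all genes gave 5.94% and 7.15%. The list median was 1.46, 0.62 and 0.61 in WT mice 33, 42 and 46 and 0.35, 0.51 and 0.35 in DKO mice 151, 152 and 153, so the median transcript was higher in exosomes than in cells in all 6 mice, most so in mouse 33. Atp5e, the epsilon subunit of ATP synthase, had 811, 511 and 455 CPM in WT exosomes and 366, 471 and 347 CPM in DKO exosomes, with 189, 278 and 258 CPM in WT cells and 287, 339 and 294 CPM in DKO cells, and an interaction of -0.91 ± 0.32 (-0.49 without mouse 33).

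Cytosolic ribosomal protein genes had a median of -0.81, and 85 of 88 interactions were below 0. At an unadjusted p below 0.05, 9 were lower (10.2%, against 2.38% of all genes), 0 were higher and 0 were called. That count was 42 without the mouse block, 32 with limma-voom and 2 with total-count scaling. In these fits 3.75%, 6.15% and 0.563% of all genes were lower at that p. The list median was 2.10 in WT mouse 33 but 0.61 and 0.20 in WT mice 42 and 46, and 0.07, 0.30 and 0.0083 in the DKO mice. Mouse 33 had the highest difference of the 6 mice for 83 of the 88 genes, against 27.6% of all genes. Rpl34, of the large subunit, had 163 CPM in the exosomes of mouse 33 and 59.2 and 46.6 CPM in those of the other WT mice, with 41.6, 50.1 and 39.6 CPM in DKO exosomes, and an interaction of -1.47 ± 0.53 (-0.79 without mouse 33). Its cells held 34.4, 46.3 and 49.2 CPM in WT against 70.4, 63.7 and 71.9 CPM in DKO. The cells thus did not overlap between genotypes and the exosomes did. Ribosomal proteins have many near-identical copies, so their counts are uncertain.

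Genes of the mitochondrial ribosome, which translates the messages of the mitochondrial genome, had a median of -0.24. At an unadjusted p below 0.05, 7 of 77 were lower (9.09%, against 2.38% of all genes), 0 were higher and 0 were called. Mrpl20 had 127, 95.8 and 85.4 CPM in WT exosomes and 54.7, 79.5 and 61.5 CPM in DKO exosomes, and an interaction of -0.90 ± 0.28.

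The values of these lists changed with the mouse left out. Without mouse 33 the median of the oxidative phosphorylation list was -0.22 with 7 members at an unadjusted p below 0.05, that of the ribosomal protein list was -0.25 with 9, and that of the mitochondrial ribosome list was -0.14 with 4, where 229 of 13153 genes in all were lower (1.74%). The chemokine list then had a median of -0.29 with 7 lower members and the class II list one of -0.30 with 3. Without mouse 46 the ribosomal protein list had 69 lower members and the oxidative phosphorylation list 40, against 1122 of 13251 genes in all (8.47%), and again no gene was called.

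The lists also differed in transcript length. Median lengths were 679.5 bases for oxidative phosphorylation, 706.5 for cytosolic and 1055 for mitochondrial ribosomal proteins, against 2707.5 for all genes tested. In every mouse, short genes were the ones higher in exosomes. Spearman's rho across the 12970 genes between length and the exosome minus cell difference was -0.36, -0.29 and -0.33 in WT mice 33, 42 and 46 and -0.20, -0.30 and -0.20 in DKO mice 151, 152 and 153, and it was 0.26 between length and the interaction. These values describe genes of the same libraries, which are not independent replicates. The part of length in the values of these lists was not tested. The class II list (1284 bases) and the chemokine list (1715 bases) were also shorter than the median gene.

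**Figure D4:**
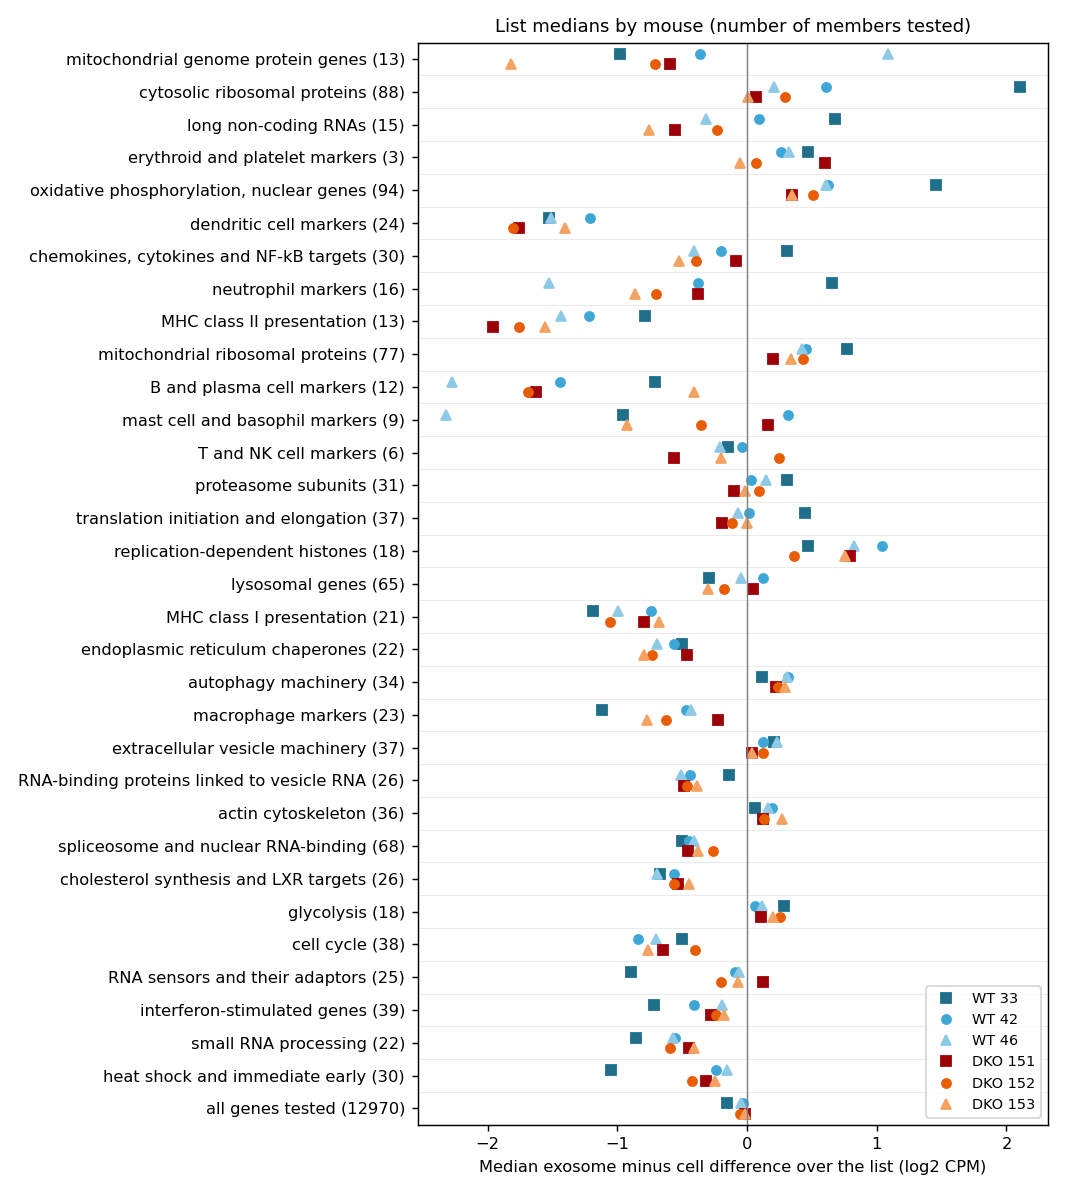
Median exosome minus cell difference (x axis, log2 CPM) over the members of each list in each mouse, ordered by the median interaction, with the number of members tested in brackets and all genes at the bottom. The mice labelled DKO lie to the left of all WT mice for MHC class II and for nuclear oxidative phosphorylation genes, mouse 33 stands far to the right for ribosomal proteins (2.10), and mouse 46 for mitochondrial genome genes (1.09).

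Mitochondrial genome transcripts parted by genotype in cells and not in exosomes. They took 4.96%, 5.73% and 5.59% of counts in WT cells and 8.07%, 7.48% and 7.48% in DKO cells, with no overlap. In exosomes they took 2.26%, 4.65% and 11.0% in WT and 5.58%, 5.08% and 2.48% in DKO, a range in which WT held both the lowest and the highest value (the widest 95% Wilson interval was 11.02% to 11.05% and covers counting error only). The log2 ratio of the exosome share to the cell share was -0.15 ± 1.07 (SD, n = 3) in WT and -0.89 ± 0.60 in DKO. The difference of -0.74 ± 0.71 (SE) had p = 0.4 in an exact two-sided permutation test of 3 against 3 mice, which cannot go below 0.1, and 0.5 after adjustment over 3 shares.

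Single mitochondrial genes showed the same mice at the ends. Mouse 46 had the highest difference of the 6 mice for 13 of 13 protein genes and both ribosomal RNAs, and in it 11 of 13 protein genes were above the cell level. COX1, the most abundant, had 18655, 31985 and 78010 CPM in WT exosomes and 35684, 34993 and 13942 CPM in DKO exosomes, against 23578 to 25116 CPM in WT cells and 34594 to 39387 CPM in DKO cells. Its interaction was -1.04 with an SE of 0.51, and -0.50 without mouse 46. The members at an unadjusted p below 0.05 were ND3 (-1.40 ± 0.40) and COX3 (-1.25 ± 0.42), neighbours on the genome, both with differences that did not overlap between genotypes. COX3 had differences of 0.14, 0.32 and 1.36 in WT and of -0.36, -0.09 and -1.50 in DKO.

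The exosome minus cell difference was unequal along the mitochondrial genome in both genotypes. ND5 had a mean difference of -2.98 log2 units in WT and -2.79 in DKO, and ND6 one of -2.86 and -2.52, where COX2 was at 0.52 and -0.37. ND5 in mouse 33 held 95.6 CPM in exosomes against 3126 CPM in cells, and in mouse 46 it held 2078 against 3271 CPM. The interactions of ND5 and ND6 were 0.23 ± 1.11 and 0.33 ± 1.04, and with intervals of -2.38 to 2.85 and -2.11 to 2.76 they set no useful limit on a genotype effect. Their sign also turned without the mouse block (-0.56 and -0.38).

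**Figure D5:**
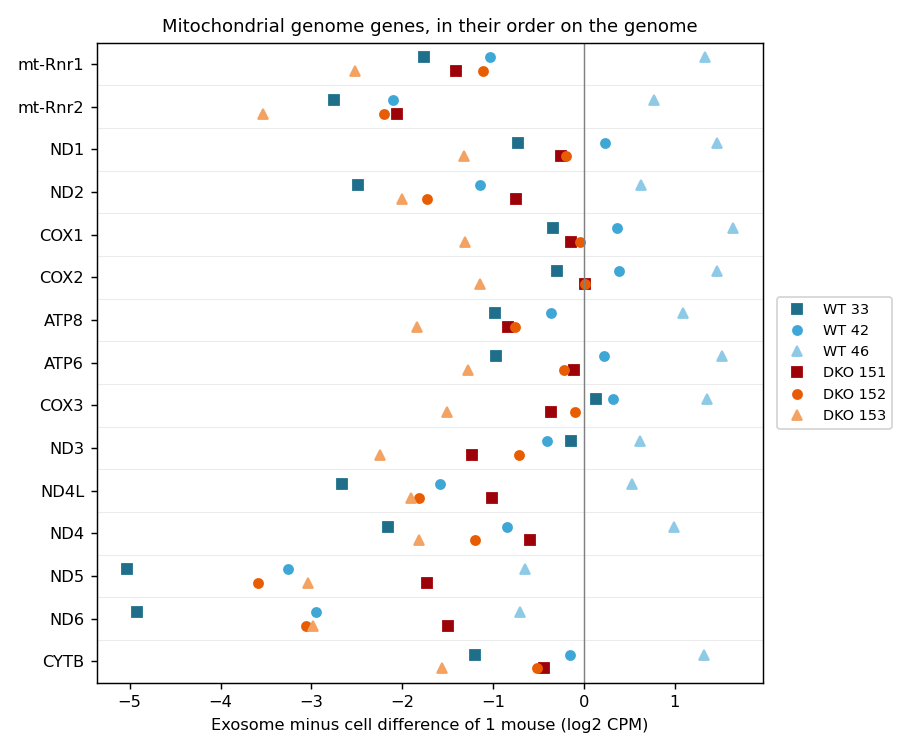
Exosome minus cell difference of each mouse (x axis, log2 CPM) for the 13 protein genes and 2 ribosomal RNA genes of the mitochondrial genome, listed in their order on it; blue marks WT and red and orange mark DKO. Mouse 46 is the rightmost point for every gene, DKO mouse 153 is leftmost for COX1, COX2, COX3 and ND3, and mouse 33 is leftmost for ND5 and ND6 at about 5 log2 units below its cells.

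The shares of ribosomal protein counts gave a similar picture with another mouse. Their log2 exosome to cell ratio was 1.80, 0.54 and 0.02 in WT mice 33, 42 and 46 and 0.16, 0.29 and 0.29 in DKO mice, a difference of -0.54 ± 0.53 (SE) with p = 0.5 in the exact permutation test. Counts on identifiers without a gene symbol took 7.88% of the exosome library of mouse 46, and the difference of their log2 ratio was -0.71 ± 0.60 with p = 0.4 in the same exact permutation test (adjusted 0.5 for each share).

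Genes that handle RNA had few members at an unadjusted p below 0.05, with shares near the 2.27% of all genes that were higher at that p for 2 of the 3 lists. Small RNA processing genes had a median of 0.18, with 2 of 22 higher (Tut7 and Xrn1), 0 lower and 0 called. Tut7, a uridylyltransferase that marks RNA for decay, had 12.5, 15.9 and 21.4 CPM in WT exosomes and 36.9, 21.4 and 32.6 CPM in DKO exosomes. Its cells held 47.5 to 57.8 CPM, and its interaction was 0.90 ± 0.29. Xrn1, the cytoplasmic exonuclease, had 0.91 ± 0.36. Spliceosome and nuclear RNA-binding genes had a median of 0.10, with 2 of 68 higher (among them Acin1, 0.64 ± 0.25) and 0 lower, and the mice did not overlap for 11 members on the higher side and 1 on the lower (7.15% and 5.94% of all genes). Of RNA-binding proteins linked to vesicle RNA, 1 of 26 was higher at that p, the nucleolar protein gene Ncl (0.68 ± 0.23).

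RNA sensors, which detect foreign or misplaced RNA, had a median of 0.16. At an unadjusted p below 0.05, 1 of 25 was higher and 0 were lower (2.27% and 2.38% of all genes). That gene was Eif2ak2, the kinase PKR that is activated by double-stranded RNA. Its exosomes held 3.50, 16.4 and 24.4 CPM in WT against 32.4, 28.9 and 37.4 CPM in DKO, and its cells 23.2, 32.6 and 29.9 CPM in WT against 26.4, 25.3 and 34.9 CPM in DKO. It was lower in exosomes than in cells in all 3 WT mice and slightly higher in all 3 DKO mice, with an interaction of 1.39 ± 0.50, of which mouse 33 made a large part (0.84 without it). Tlr3 and Ddx58, receptors for double-stranded RNA, had interactions of 1.19 ± 0.82 and 0.44 ± 0.28. Interferon-stimulated genes, which also hold Eif2ak2, gave 1 of 39 higher, 0 lower and a median of 0.18. Without mouse 33 the medians of the sensor and interferon lists were 0.0056 and 0.05, and Tlr3 and Ddx58 came to 0.56 and 0.20.

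Genes of the vesicle and lysosome machinery showed small values. At an unadjusted p below 0.05, 2.27% of all genes were higher and 2.38% lower. Extracellular vesicle genes had a median of 0.05, with 1 of 37 higher (Vps37a, of the ESCRT-I complex, 0.58 ± 0.23) and 1 lower at an unadjusted p below 0.05. The lower one was Cd63, the tetraspanin used as an exosome marker, with an interaction of -0.40 ± 0.16. It had 769, 613 and 590 CPM in WT exosomes and 597, 700 and 480 CPM in DKO exosomes. Cd63 transcripts were above the cell level in every WT mouse and below it in every DKO mouse. Cd9 and Tsg101, also used as exosome markers, had -0.37 ± 0.19 and -0.51 ± 0.34, the latter at -0.13 without mouse 33.

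Lysosomal genes, of the compartment in which SIDT2 resides, had a median of -0.09 and 48 of 65 interactions below 0, against 47.3% of all genes. At an unadjusted p below 0.05, 8 were lower (12.3%, against 2.38% of all genes), 0 were higher and 0 were called. They were Atp6v0b, a subunit of the proton pump (-0.65 ± 0.20), Cd63, Ctsl, Rnaset2b, a lysosomal ribonuclease (-0.41 ± 0.18), and 4 subunits of the Ragulator complex. These subunits were Lamtor1, Lamtor3, Lamtor4 and Lamtor5 (-0.94 to -0.50). Without mouse 33 Lamtor1 came to -0.31, Lamtor3 to -0.43, Lamtor4 to -0.32 and Lamtor5 to -0.45. Atp6v0b had 671, 478 and 395 CPM in WT exosomes and 345, 441 and 290 CPM in DKO exosomes. Of 34 autophagy genes, Pik3r4 was higher (0.78 ± 0.29) and Gabarapl2 lower (-0.63 ± 0.23) at that p. Of all genes, 2.27% were higher and 2.38% lower. The median of the autophagy list was 0.02.

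The remaining lists held at most 4 members at an unadjusted p below 0.05. Of all genes, 2.27% were higher and 2.38% lower at that p. Cell cycle genes had 3 of 38 higher (Tpx2, 0.70 ± 0.22, with Kif11 and Aurkb) and 1 lower (Ccnb1). Proteasome subunits had 1 higher (Psmd1) and 1 lower (Psma5, -1.42 ± 0.55) of 31, translation factors 1 higher of 37 (Eif3a, 0.66 ± 0.28), actin cytoskeleton genes 1 lower of 36 (Myl6, -0.73 ± 0.30), and heat shock and immediate early genes 1 lower of 30 (Fosb, -1.61 ± 0.70). Without mouse 33 Psma5 came to -0.82 and Myl6 to -0.37. Glycolysis, cholesterol synthesis, endoplasmic reticulum chaperones, histones and long non-coding RNAs had 0 each. Their members with the smallest p were Hk1 (0.49 ± 0.25), Mylip (0.47 ± 0.28), Ero1b (0.36 ± 0.22), H4c9 (-0.78 ± 0.58) and Snhg6 (-1.04 ± 0.46). Without mouse 33 Hk1 came to 0.25, H4c9 to -0.30 and Snhg6 to -0.44. The long non-coding RNA list had a median of -0.70 and 13 of 15 interactions below 0, against 47.3% of all genes. Without the mouse block 3 members were lower at that p (20.0%, against 3.75% of all genes in that fit). Without mouse 46 there were 5 (33.3%, against 8.47%). Of the 33 lists, 19 medians were below 0 and 14 above, and 0 lists held a called gene.

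The nuclear RNA Malat1 set mouse 46 apart again. It had 7.58, 2.99 and 46.7 CPM in WT exosomes and 4.53, 4.94 and 5.99 CPM in DKO exosomes, with 194 to 390 CPM in cells of all mice. The interaction of -1.41 ± 1.18 came to 0.0070 without mouse 46. Xist, which coats the inactive X chromosome, was present in the cells of the female WT mice 33 and 42 alone (4792 and 4457 counts, against at most 4 in the other cells) and in their exosomes at 37 and 35 counts, and Ddx3y of the Y chromosome was present in the 4 males. The sex recorded for each mouse thus held in its cell library.

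With a compartment by sex term in the fit, 7 genes had an adjusted p below 0.05, all lower in DKO. Their adjusted p in the fit without that term was 0.739 to 0.966. In such a fit the WT side of the interaction rests on mouse 46, the only male WT. They were Ran, the GTPase of nuclear transport, Gprin1, Ppp1r14a, Mtcp1 and 3 identifiers without a symbol. Gprin1 had 2, 3 and 256 counts in the WT exosome libraries of mice 33, 42 and 46 and 2, 6 and 0 in those labelled DKO. Ran had 8262 counts in the exosomes of mouse 46, against 2799 and 5231 in those of mice 33 and 42. The exosome counts of mouse 46 were above those of every other exosome library for all 7 genes.

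Directions in this text are relative to TMM scaling. Scaling by total counts alone moved the median interaction of all genes to 0.26, with 1266 genes higher and 73 lower at an unadjusted p below 0.05 and 0 called. The chemokine list then held 3 lower and 2 higher members and a median of -0.06, dendritic cell markers 0 and -0.20, class II 0 and -0.04, oxidative phosphorylation 0 lower and 2 higher with -0.24, and the lysosomal list turned to 0.14. The median of each of these 5 lists lay below that of all genes under both scalings. Scaling shifts all genes of a library alike, so that order could hardly change and is no support for it.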

How the data were processed

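TruSeq libraries of 6 mice, cells and exosomes, were counted per gene by the authors. The authors deposited raw integer counts, made with featureCounts on mm10 per the submitters' processing notes. Aligner, annotation, strandedness and versions remain not given in the sources used here. Overlapping genes on opposite strands cannot be separated. Symbols and coordinates (RefSeq, GRCm38.p6) were found for 25275 of 27179 gene identifiers. Groups, sex and mouse numbers come from the labels, which give 1 cell and 1 exosome library to each mouse. Within each group, every 2 libraries differed by more than sampling noise.

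The main test was edgeR 4.0.16 (R 4.3.3): quasi-likelihood F test, robust, filterByExpr by group, TMM, Benjamini-Hochberg over all genes tested, adjusted p below 0.05. The model held a term for each mouse and the exosome effect of each genotype, with 4 residual degrees of freedom. The pairing comes from the mouse number. Same-mouse deviations of the cell and exosome libraries correlated at 0.0055 to 0.15, and the best match was the same mouse for 5 of 6. Per-mouse differences are log2 CPM with a prior count of 2. Shares were compared by an exact two-sided permutation test over mice. DESeq2 1.42.0, limma 3.58.1, other scalings and filters, a sex term and each mouse left out were alternatives. The interaction fit was tested on simulated data.

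Named genes were Sidt1 and Sidt2, and the 6 smallest p in each direction (mean log2 CPM above 1, symbol not a predicted gene). Also named were the member of each list with the smallest p, Xist, Ddx3y, Malat1, Ccr7 and the most abundant mitochondrial gene. All other genes were picked after their values were seen. The values of 1 gene are not reported here. Members and lists were chosen with earlier results of these data known. Counts of list members at an unadjusted p are descriptions, not tests.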

Additional observations from a re-analysis of the deposited data

Results flagged for a closer look

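In 6 of 126 genes (the named genes, list members at an unadjusted p below 0.05 and mitochondrial genes), every WT mouse lay on one side of 0 and every mouse labelled DKO on the other. Iqgap2 was lower in exosomes than in cells in 3 of 3 WT mice and higher in 3 of 3 mice labelled DKO, with an interaction of 0.99 on the log2 scale, and Eif2ak2 showed the same order with 1.39. The reverse order held for COX3 of the mitochondrial genome (-1.25), Cd63 (-0.40), Mrps35 of the mitochondrial ribosome (-0.58) and Rpl36a of the large ribosomal subunit (-1.80). Without mouse 33 Eif2ak2 came to 0.84, Mrps35 to -0.37 and Rpl36a to -1.01. The difference was tested in each by the interaction term of edgeR, and none passed (adjusted p of 0.739 each). Among all genes, 0.887% showed such a split in one direction or the other. Many of the 126 genes were picked by a small p of this same interaction, so their share cannot be set against that one.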

How the results depend on the processing

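Calls stayed at 0 in 16 of 17 alternatives, over which the smallest adjusted p ran from 0.0818 (without mouse 46, 2012 genes at an unadjusted p below 0.05) to 1.0. The exception was the compartment by sex term, with 7 genes called and 7 of them lower; the WT side then rests on mouse 46. Without the mouse as a replicate block 0 genes were called (smallest adjusted p 0.715, 776 genes at an unadjusted p below 0.05), and the block changed no call. Leaving out each mouse in turn gave 0 to 0 calls. Of 2124 interaction values of 126 genes under the alternatives (the named genes, list members at an unadjusted p below 0.05 and the mitochondrial genes), 24 changed sign, in 11 genes. With the sex term Retnlg came to 0.76, H4c9 to 0.32, Sidt2 to 0.0305, Ciita to -0.42, ND5 to -2.14 and ND6 to -1.82. Without the block ND5 came to -0.56 and ND6 to -0.38, and without the exosome library of mouse 33 as well, to -1.09 and -0.90. With total-count scaling Sidt2 came to 0.0169 and Ddx3y to 0.10. With mice left out, Sidt2 ran from -0.57 to 0.16, Malat1 from -2.66 to 0.0070 and Ciita from -0.24 to 0.28. In the same fits ND2 ran from -1.24 to 0.31, ND4 from -1.28 to 0.29 and ND4L from -1.06 to 0.50. ND5 ran from -0.84 to 1.34 and ND6 from -0.70 to 1.38. Of 543 list medians under the alternatives, 48 moved by more than the spread between mice. The cause of these changes was not tested. Added after seeing the data were the fit without the block and without the exosome library of mouse 33, and limma on the per-mouse differences. With 3 mice a genotype and 4 residual degrees of freedom, the depth (7215083 counts in the shallowest library) limits genes below a mean log2 CPM of 2 most.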
